A study of Mus musculus with 12 samples.

Results

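Amino acids cross the plasma membrane through solute carriers, and 10 of these carriers are described here: Slc7a1, Slc7a3, Slc7a5, Slc7a11, Slc3a2, Slc6a9, Slc1a4, Slc1a5, Slc38a1 and Slc38a2. They were taken by gene symbol from the platform annotation, which gives 25 probes for 9 of them and none for Slc7a5, so that Slc7a5 was not analysed here. Of the 25 probes, 11 were detected on at least 2 arrays, and these left 7 of the 10 genes in the test, out of 12001 features (9493 named genes) tested in all. A probe was called detected on an array when its detection p-value, which sets it against the negative control beads, was under 0.01.

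The RNA came from MIN6 cells, a mouse insulinoma line with β-cell properties, and was measured on 12 Illumina arrays, 2 for each of 6 groups. Induced cells carried the doxycycline-responsive plasmids with the tetO-184 construct for the microRNA miR-184 and received 1 µg/ml doxycycline for 16, 24, 48 or 72 h. The transfected control carried the same plasmids without doxycycline, and the untransfected control was given doxycycline but no plasmids. The arrays lay on 2 slides, with 1 array of each group on either, and values are given below as slide 1 first and slide 2 second. When the controls were harvested is not in the labels, so that time in culture and time of induction cannot be told apart. Against the transfected control, which had no doxycycline, exposure to the drug and induction of miR-184 cannot be told apart either. The untransfected control had the drug without plasmids, and the labels do not say for how long. The series design speaks of biological triplicates, whereas 2 arrays in each group were analysed here. The labels do not say which cultures these came from, and the p-values measure the spread between these arrays.

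Between 15243 and 16737 of 45281 probes were detected on each array. Precision is limited by there being 2 arrays in a group. No probe is annotated to miR-184, so its induction was not measured on these arrays. Of 12 β-cell markers, 10 were detected on all 12 arrays (Ins2, Iapp, Pdx1 and Nkx6-1 among them), Pcsk1 was detected on none, and Ins1 has no annotated probe. Of 13 markers of other islet and pancreatic cells, only Gcg and Ppy were detected on any array, and Sst, Cpa1, Krt19, Pecam1, Kdr, Ptprc, Col1a1, Col3a1 and Vim on none, while Prss1 and Cd68 have no annotated probe. The 2 arrays at 48 h stood far apart in the transporters, as described below, and results that rest on them are given for each.

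Transporters of this group bring in the amino acids that cells need for protein and for glutathione. Slc3a2 (the 4F2 heavy chain, CD98) carries partner light chains to the cell surface. Its partners include Slc7a11 (xCT), which takes up cystine in exchange for glutamate, and Slc7a5 (LAT1), which takes up large neutral amino acids. Many of these genes are known targets of the transcription factor Atf4, which is translated when the initiation factor eIF2α is phosphorylated, as in amino acid shortage or stress of the endoplasmic reticulum. Atf4 binds with C/EBP proteins to a composite element, searched here as TGATGNAA (TTNCATCA on the other strand).

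The promoters were searched for this element to describe their letters, and those that held it are shown. RefSeq promoter windows (GRCm38.p6, 250 bases before to 50 after each start) were at hand for 6 of the 10 genes. Those of Slc7a11 and Slc1a4 held the element, with 2 matches in Slc7a11 and 1 in Slc1a4. In the Slc7a11 window the matches begin 66 and 47 bases before the start and run in opposite directions, and in the Slc1a4 window the match begins 4 bases before the start and spans it. The windows of Slc6a9, Slc7a1, Slc38a2 and Slc3a2 had no match to these letters. Counted by window, 2 of the 9 windows of these genes held at least 1 match, beside 3.97% of all 32851 windows. Counted by gene it was 2 of 6, beside 4.51% of all 27025 genes with a window. The transporters were chosen with earlier results of these data known, so these shares are descriptions and no test. A match is a description of the letters, and binding was not measured. Whether Atf4 acted on these genes here was not tested. The stretches below read 5′ to 3′ on the gene's strand (minus for both), with the matches in capitals.
Slc7a11, chr3:50443633-50443699: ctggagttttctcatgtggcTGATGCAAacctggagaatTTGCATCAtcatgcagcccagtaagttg
Slc1a4, chr11:20332710-20332737: cctccagcgtgcctcctgcgTTGCATCA

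After 72 h of induction, transporter mRNAs were higher than in the transfected control. Slc6a9 and Slc38a2 passed the test, with log2 fold changes of 3.54 and 1.68, and with the slide in the fit Slc7a11 (3.17), Slc7a3 (2.47), Slc1a4 (2.20) and Slc3a2 (1.39) passed as well. No tested transporter fell, and Slc38a1 (0.36) did not pass in either fit. Thus 2 of 7 passed without the slide and 6 of 7 with it, at an adjusted p under 0.05 in limma over all 12001 features. Over all features, 5.48% passed without the slide (2.73% higher) and 19.2% with it (10.4% higher). The tested probes of 5 transporters were detected on all 12 arrays, that of Slc7a11 on 6 (both 72 h arrays, 1 at 48 h and 3 control arrays), and that of Slc3a2 on 5 (both 72 h arrays, 1 at 48 h, 1 at 24 h and 1 control array). The median log2 fold change was 2.20 for the 7 transporters and 0.00 for all features. The transporters and the gene lists below were chosen with earlier results of these data known, so these shares and medians are descriptions. Values below are normalized signals on the log2 scale, in which levels of different probes cannot be set against each other.

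**Figure D1:**
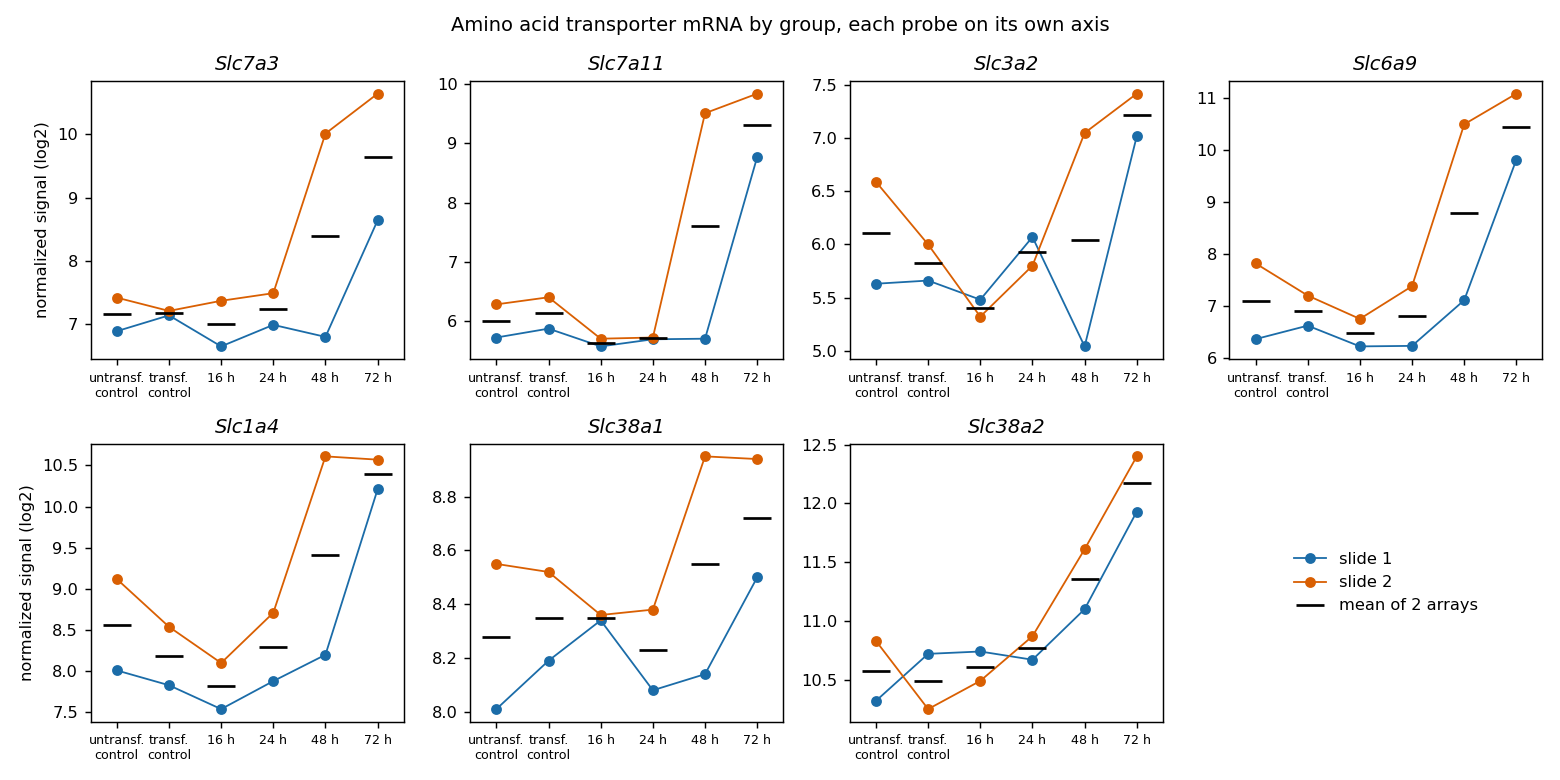
Normalized signal (log2) of the 7 tested transporters on each of the 12 arrays, by group, with an axis for each gene. Blue and orange points are slides 1 and 2, joined by lines within a slide, and black bars are means of 2 arrays; on slide 1 the 72 h array is the highest for all 7 genes, and on slide 2 for 5 of them.

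Slc6a9 (GlyT1) takes up glycine together with sodium and chloride. Its signal was 9.82 and 11.09 after 72 h, against 6.62 and 7.20 in the transfected control. It was 6.22 and 6.75 at 16 h, 6.23 and 7.38 at 24 h and 7.11 and 10.50 at 48 h, and 6.36 and 7.82 in the untransfected control. Both 72 h arrays thus stood above all controls and all arrays of 16 and 24 h. The log2 fold change at 72 h of 3.54 (11.7-fold, SE 0.88, adjusted p = 0.0451) was the highest of all 12001 features. It was 3.20 on slide 1 and 3.89 on slide 2, with an adjusted p of 0.00147 with the slide in the fit. A second Slc6a9 probe, ILMN_1217832, was detected on 0 arrays.

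Slc7a11 supplies cystine, the source of the cysteine in glutathione. Its signal was 8.77 and 9.84 after 72 h, against 5.87 and 6.40 in the transfected control. It was 5.57 and 5.70 at 16 h, 5.69 and 5.72 at 24 h and 5.70 and 9.51 at 48 h, and 5.72 and 6.28 in the untransfected control. The 72 h arrays did not overlap any control, whereas the 48 h array of slide 1, like those of 16 and 24 h, did not detect the probe. The log2 fold change at 72 h was 3.17 (9.01-fold, SE 0.86), 2.90 and 3.44 on the 2 slides, with an adjusted p of 0.0537 without the slide and 0.00725 with it. This was the fifth highest of all features. At 16 and 24 h the probe was detected on 0 of 2 arrays in each group, and the signal at 72 h was at least 10.7-fold higher than at 16 h. The second kept Slc7a11 probe, ILMN_2740738, had a log2 difference at 72 h of 1.92 (1.86 and 1.98 by slide). The other 3 Slc7a11 probes were detected on 0 arrays.

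Slc3a2, the heavy chain that brings Slc7a11 to the membrane, has 1 probe, which was detected on 5 of 12 arrays. Its signal was 7.02 and 7.42 after 72 h, against 5.66 and 6.00 in the transfected control. The control signals were not well above background. It was 5.48 and 5.32 at 16 h, 6.07 and 5.80 at 24 h and 5.04 and 7.05 at 48 h, and 5.63 and 6.59 in the untransfected control. Both 72 h arrays were above every control array. The signal at 72 h was at least 2.44-fold higher, a bound set against the lowest signal of a detected probe on each control array, or the probe's own where higher. The fitted log2 fold change was 1.39 (SE 0.52), 1.36 and 1.42 by slide, and passed with the slide in the fit (adjusted p = 0.0345) but not without it (0.121).

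Slc7a3 (CAT3) takes up the cationic amino acids arginine, lysine and ornithine. Its signal was 8.64 and 10.64 after 72 h, against 7.14 and 7.21 in the transfected control. It was 6.65 and 7.37 at 16 h, 6.99 and 7.49 at 24 h and 6.80 and 10.01 at 48 h, and 6.89 and 7.42 in the untransfected control. The 2 arrays at 72 h lay 2.0 apart, the widest such gap among the tested transporters. The log2 fold change was 2.47 (5.54-fold, SE 0.83), 1.51 on slide 1 and 3.43 on slide 2, with an adjusted p of 0.0942 without the slide and 0.0102 with it. The other Slc7a3 probe, ILMN_1212906, was detected on 0 arrays.

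Slc7a1 (CAT1), the more widely expressed carrier of cationic amino acids, has 2 probes, and both were detected on 0 of 12 arrays. On ILMN_2728091 the unnormalized signal was 89.7 and 96.7 at 72 h, against 61.6 and 70.4 in the transfected control, with detection p-values of 0.0331 and 0.0171 at 72 h. It was 60.6 and 82.5 at 48 h, and 84.0 and 70.5 in the untransfected control, in which slide 1 was thus near the 72 h signals. No fold is given for a gene below the detection limit in both groups.

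Slc1a4 (ASCT1) exchanges alanine, serine, cysteine and threonine. Its signal was 10.21 and 10.57 after 72 h, against 7.83 and 8.54 in the transfected control. It was 7.54 and 8.10 at 16 h, 7.88 and 8.71 at 24 h and 8.20 and 10.61 at 48 h, and 8.01 and 9.12 in the untransfected control. On slide 2 the 48 h array was thus as high as the 72 h array. The log2 fold change at 72 h was 2.20 (4.59-fold, SE 0.63), 2.38 and 2.02 by slide, with an adjusted p of 0.0613 without the slide and 0.00257 with it. The related Slc1a5 (ASCT2), an exchanger that takes up glutamine, has 5 probes, and all 5 were detected on 0 arrays.

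Slc38a2 (SNAT2) takes up small neutral amino acids with sodium and is known to rise when cells lack amino acids. Its signal was 11.93 and 12.40 after 72 h, against 10.72 and 10.25 in the transfected control. It was 10.74 and 10.49 at 16 h, 10.67 and 10.87 at 24 h and 11.10 and 11.61 at 48 h, and 10.32 and 10.83 in the untransfected control. Both arrays at 48 h lay above all earlier and control arrays and below both at 72 h. The log2 fold change at 72 h was 1.68 (3.21-fold, SE 0.24), 1.21 and 2.15 by slide, with an adjusted p of 0.0134 without the slide and 0.00132 with it. A second kept probe, ILMN_2955671, differed by 1.20 (0.98 and 1.42 by slide), and the other probe, ILMN_2721692, was detected on 0 arrays.

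Slc38a1 (SNAT1), a sodium-coupled carrier of glutamine and other neutral amino acids, was the tested transporter with the smallest difference. Its signal was 8.50 and 8.94 after 72 h, against 8.19 and 8.52 in the transfected control, so that the groups overlapped. It was 8.34 and 8.36 at 16 h, 8.08 and 8.38 at 24 h and 8.14 and 8.95 at 48 h, and 8.01 and 8.55 in the untransfected control. On slide 2 the 48 h array was thus level with that of 72 h. The log2 fold change was 0.36 (SE 0.28), with an adjusted p of 0.442 without the slide and 0.167 with it. Its 3 kept probes disagreed, with differences at 72 h of 0.36, −0.10 and 0.23. All 3 were designed on cDNA records other than the RefSeq transcript, and the probe designed on the RefSeq transcript was detected on 1 array.

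**Figure D2:**
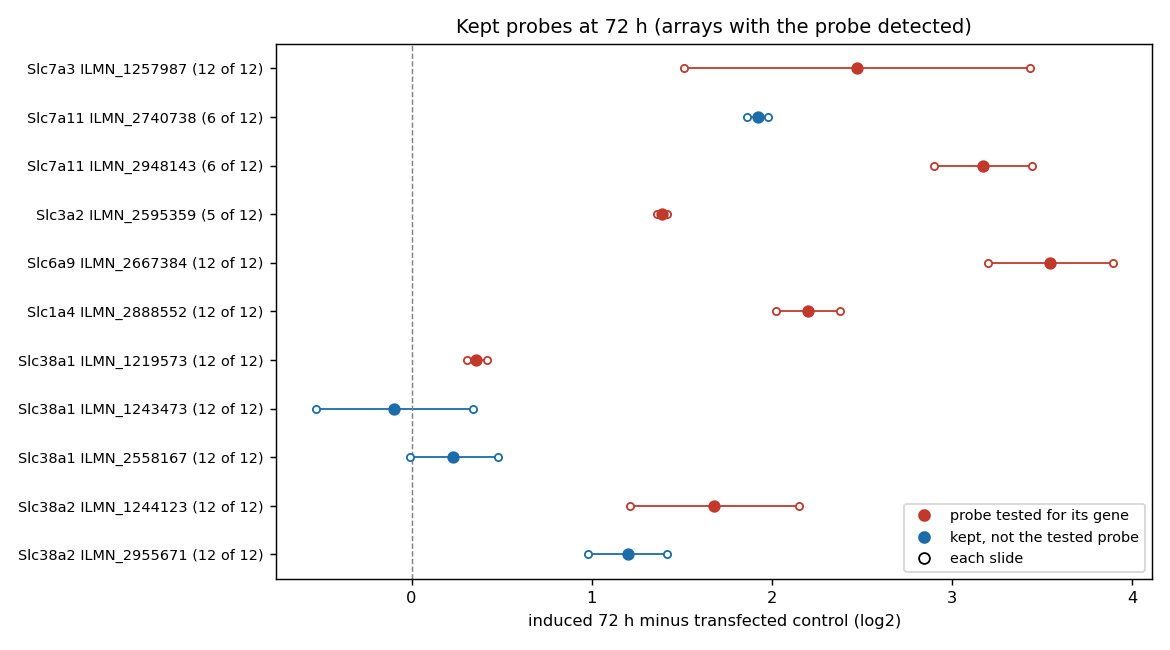
Difference between induced 72 h and transfected control arrays (log2) for the 11 probes detected on at least 2 arrays, with the number of arrays on which each was detected. Filled points are means, open points the 2 slides; red marks the probe tested for its gene and blue the other kept probes. The second kept probes of Slc7a11 (1.92) and Slc38a2 (1.20) lie on the same side of 0 as the tested ones, and those of Slc38a1 lie on both sides.

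The calls at 72 h depended on single arrays. Without the slide, the number that passed was 0 when the transfected control array or the 72 h array of slide 2 was left out, 1 without the control array of slide 1, and 4 without the 72 h array of slide 1. With the slide in the fit it was between 2 and 5, and the 2 that passed without the control array of slide 2 were Slc6a9 (adjusted p = 0.0402) and Slc38a2 (0.0340). In a fit without the 48 h arrays, chosen after the data were seen, 6 passed at 72 h. Every difference at 72 h kept its sign on each slide and in each of these fits.

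**Figure D3:**
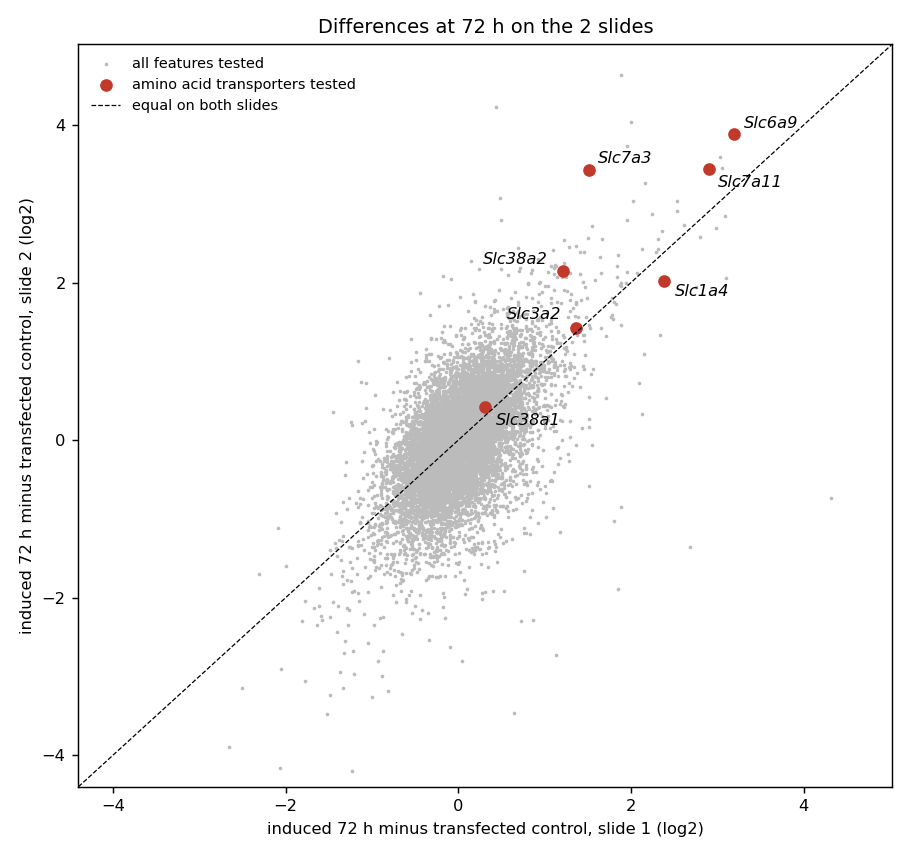
Difference between induced 72 h and transfected control arrays (log2) on slide 1 and slide 2 for all 12001 features tested (grey) and the 7 tested transporters (red). All 7 lie above 0 on both slides, from Slc38a1 at 0.31 and 0.42 to Slc6a9 at 3.20 and 3.89.

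At 16 h the transporters were not higher. Their log2 differences from the transfected control ran from −0.51 (Slc7a11) to 0.13 (Slc38a2), with a median of −0.37, and 6 of 7 were below 0. None passed in limma in either fit, none at an unadjusted p under 0.05, and none by the methods' t-test. Over all features, 0% passed at 16 h without the slide and 0.00833% with it. At 24 h the differences ran from −0.43 (Slc7a11) to 0.28 (Slc38a2), with a median of 0.06, and again none passed in either fit, at an unadjusted p or by the methods' t-test, beside 0% and 0.0167% of all features. Between the 2 controls (transfected minus untransfected) they ran from −0.38 (Slc1a4) to 0.14 (Slc7a11). None passed in either fit, at an unadjusted p or by the methods' t-test, beside 0% and 0.00833% of all features. These controls differ in doxycycline as well as in plasmids, so that the 2 factors cannot be told apart in this comparison. Slc7a11 was detected on both transfected control arrays but on none at 16 or 24 h, and its signal was at least 1.19-fold lower at 16 h and 1.22-fold lower at 24 h. Slc3a2 was not well above background at 16 h or in the transfected control, so that its difference there has no meaning as a fold.

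Set against 16 h, the 72 h arrays were higher by 3.97 on the log2 scale for Slc6a9 (adjusted p = 0.0422), 3.68 for Slc7a11 (0.0451, at least 10.7-fold, as no 16 h array detected it) and 1.56 for Slc38a2 (0.0305). These 3 of 7 passed without the slide, and with it Slc7a3 (2.63), Slc1a4 (2.57) and Slc3a2 (1.82, at least 2.51-fold) passed as well, 6 of 7 in all. Over all features, 3.07% passed without the slide (1.62% higher) and 18.6% with it (9.99% higher). This comparison shares the 72 h arrays with the one above. None passed without the slide when either 16 h array or the 72 h array of slide 2 was left out, and 4 passed without the 72 h array of slide 1. With the slide in the fit none passed without the 16 h array of slide 2.

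At 48 h the signals lay apart on the 2 slides. On slide 1 the 48 h array stood close to the control, with log2 differences from the transfected control of 0.50 for Slc6a9, −0.34 for Slc7a3 and 0.37 for Slc1a4, and Slc7a11 and Slc3a2 were not detected on it. On slide 2 the differences were 3.30 for Slc6a9, 2.80 for Slc7a3, 2.07 for Slc1a4 and 3.10 for Slc7a11, and Slc3a2 was detected. The step from 48 to 72 h was 2.70 on slide 1 and 0.59 on slide 2 for Slc6a9, and 1.85 and 0.64 for Slc7a3. For Slc38a2 this step was 0.83 and 0.80. Slide 2 thus held most of its 72 h difference for Slc6a9 and Slc7a3 at 48 h, and slide 1 did not. The difference between the slides was not tested.

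**Figure D4:**
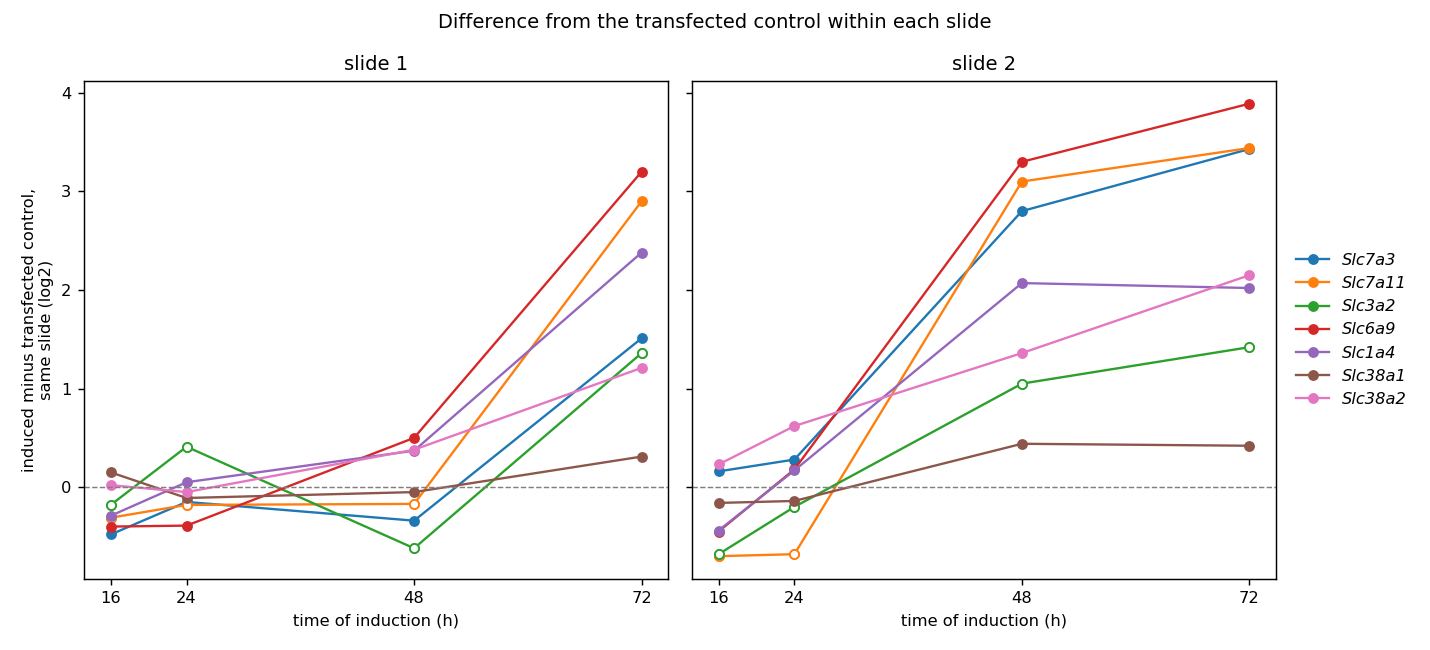
Difference between each induced array and the transfected control array of the same slide (log2) against time of induction in hours, 1 line for each tested transporter. Open points mark a probe not detected on one or both of the arrays compared (Slc7a11 and Slc3a2); the filled points lie between −0.34 and 0.50 at 48 h and between 0.31 and 3.20 at 72 h on slide 1, and between 0.44 and 3.30 at 48 h and between 0.42 and 3.89 at 72 h on slide 2.

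The gap between the 2 arrays at 48 h (slide 2 minus slide 1) was 3.38 for Slc6a9 and 3.21 for Slc7a3, and 2.41, 0.81 and 0.50 for Slc1a4, Slc38a1 and Slc38a2. For Slc7a11 and Slc3a2 the measured signals lay 3.80 and 2.01 apart, but those of slide 1 were not above background (detection p-values of 0.0107 and 0.142), so that these gaps are not exact. Over all features the median gap was 0.00, and 95% of features lay between −0.89 and 0.99. Slide 2 was also the higher for all 7 genes at 72 h, with gaps between 0.36 and 2.0, and in the untransfected control, between 0.51 and 1.46. The gaps lay between −0.25 and 0.72 at 16 h, −0.27 and 1.15 at 24 h and −0.47 and 0.71 in the transfected control. The median unnormalized signal was 66.9 and 67.2 on the 48 h arrays, the lowest of the 12, and 16621 and 15632 probes were detected on them. Why these arrays differ was not tested.

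With the 48 h arrays so far apart, no transporter passed at 48 h in either fit of limma, although the median log2 fold change was 1.22. At an unadjusted p under 0.05 there was 1 of 7 without the slide and 5 of 7 with it, beside 10.8% and 18.2% of all features. By the methods' t-test there was none. Over all features, 0% passed at 48 h without the slide and 0.95% with it. Without the 48 h array of slide 1, 4 transporters passed (5 with the slide in the fit), and without that of slide 2 none passed. Neighbouring times could not be ordered by the test either. None passed from 24 to 48 h, beside 0% and 0.025% of all features. At an unadjusted p under 0.05 there were 3 and 4 without and with the slide, beside 6.76% and 13.6% of all features. None passed from 48 to 72 h, beside 0% of all features in both fits. Unadjusted, 2 and 6 did so, beside 4.18% and 9.27% of all features. The methods' t-test found none in either step. From 24 to 48 h, 4 passed in both fits without the 48 h array of slide 1. From 48 to 72 h, 1 passed, and 5 with the slide in the fit, without that of slide 2.

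The transporters also followed each other over the arrays. Over the 12 arrays, the correlation of each with the mean of the others, each centred on its own mean, was between 0.870 (Slc38a1) and 0.991 (Slc6a9), and those of single pairs were between 0.687 (Slc38a1 with Slc38a2) and 0.984 (Slc6a9 with Slc1a4). These are descriptions, since the points share slides and rest largely on the 3 arrays with high signals, those of 72 h and the 48 h array of slide 2. The mean centred level was 1.19 and 2.05 at 72 h, −0.63 and 1.67 at 48 h, and between −0.86 and 0.01 on all others. The 5 other genes nearest to this profile were Gpt2 (r = 0.995), which makes alanine from glutamate and pyruvate, Xpot (0.990), which exports tRNA from the nucleus, Cmtm8 (0.990), Nupr1 (0.989), a stress-induced nuclear protein, and Leprotl1 (0.989). At 72 h their log2 fold changes were 2.72 for Gpt2, 1.66 for Xpot, 3.31 for Nupr1 and 1.27 for Leprotl1, and Cmtm8 was at least 1.74-fold higher, as no control array detected it. These folds are descriptions, since the genes were chosen for a profile that is high at 72 h, and Cmtm8 was detected only on 1 array at 48 h and both at 72 h.

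Other amino acid transporters moved in both directions. Of 38 listed, 22 were tested, with a median log2 fold change at 72 h of −0.03. At this time 1 was higher and 2 lower (5 and 3 with the slide in the fit). Among all 12001 features 328 were higher and 330 lower (1254 and 1051 with the slide), which is 5.48% and 19.2% in all. Slc6a15, a carrier of branched-chain amino acids and proline, was higher by 1.63 (adjusted p = 0.0134). Its signal was 9.17 and 9.73 at 72 h, against 7.96 and 7.66 in the transfected control, and with 8.67 and 9.01 at 48 h it was high on both slides. Slc16a10, which carries aromatic amino acids, was lower (−0.90, adjusted p = 0.0355), and Slc36a1, a proton-coupled carrier of small amino acids at the lysosome, was lower as well (−1.21, 0.0452). With the slide in the fit Slc38a7 (1.27), a lysosomal exporter of glutamine, and Slc38a9 (1.19), a lysosomal sensor of arginine, were among those higher, and Slc38a10 (−0.87) was lower. The signal of Slc38a9 was 6.53 and 7.65 at 72 h, against 6.06 and 5.74 in the transfected control, where 1 array detected it. It was 6.59 and 6.69 at 24 h and 6.24 and 6.24 in the untransfected control, so that the 72 h array of slide 1 did not stand above those of 24 h.

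Regulators and targets of the amino acid stress response were higher at 72 h. Of 15 listed, 13 were tested and 6 were higher at 72 h (11 in the fit that holds the slide), none lower, with a median of 1.54. Among all features 2.73% were higher (10.4% with the slide). Trib3, a pseudokinase that dampens this response, was higher by 2.97, with signals of 13.05 and 13.43 at 72 h, against 9.96 and 10.58 in the transfected control. Chac1, which breaks down glutathione, was higher by 2.58, Cebpb and Ddit3 (CHOP), transcription factors of the C/EBP family, by 2.09 and 2.03, and Cebpg, another, by 1.54. Sesn2, a sensor of leucine, was higher by 1.73. Atf4 itself differed by 0.50 and Asns, the asparagine synthetase, by 0.67, and both passed with the slide only (adjusted p = 0.0294 and 0.0451). Trib3 had the same split at 48 h, with 10.70 on slide 1 and 13.25 on slide 2, as did Gpt2 with 8.47 and 10.97.

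**Figure D5:**
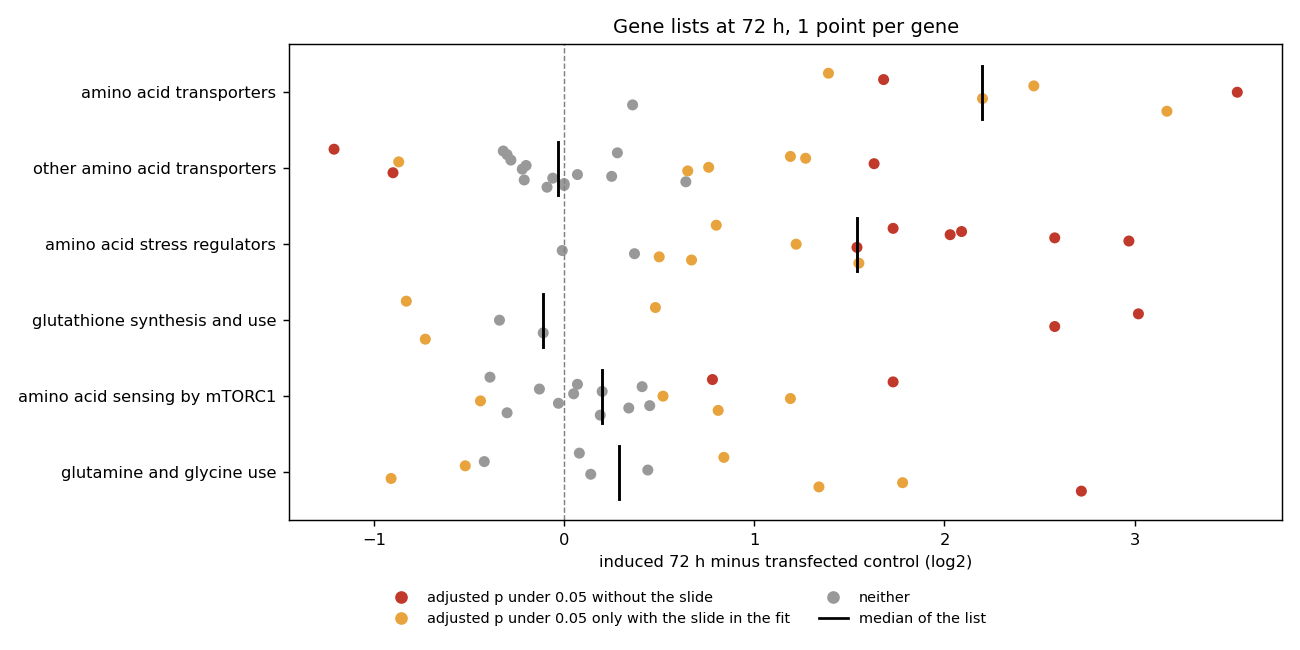
Log2 difference between induced 72 h and transfected control arrays for each tested gene of 6 lists, 1 point per gene, with the median of each list as a black bar. Red points passed without the slide, orange points with the slide in the fit only and grey points in neither fit; medians are 2.20 for the transporters described here, −0.03 for other amino acid transporters and 1.54 for the stress regulators.

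The genes that use what these carriers bring in were mixed. The counts below stand beside 5.48% of all features that passed at 72 h without the slide and 19.2% with it. Of 10 genes of glutathione synthesis and use, 7 were tested, and 2 passed at 72 h, both higher, against 3 higher and 2 lower in the fit that holds the slide. Those that passed in both fits were Chac1, already counted among the stress genes above, and Cth, which makes cysteine from cystathionine. Cth was detected on both 72 h arrays and 1 at 48 h and on no other, so that it entered the test through those arrays alone, and it was at least 4.70-fold higher at 72 h. Of the calls made only when the slide was fitted, Gss, the glutathione synthetase (−0.83), and Cbs (−0.73) were lower and Gpx4 (0.48) was higher. The median of this list was −0.11. Of 17 genes of glutamine and glycine use, 10 were tested, and Gpt2 (2.72) passed without the slide. With it Shmt2 (1.78), Phgdh (1.34) and Psat1 (0.84), enzymes of serine and glycine synthesis, were higher, and Glud1 (−0.52) and Nos1 (−0.91), which makes nitric oxide from arginine, were lower. Of 21 genes of amino acid sensing by mTORC1, 17 were tested, and Rragc (0.78), a GTPase that brings mTORC1 to the lysosome, and Sesn2 were higher, with a median of 0.20 for the list. With the slide in the fit 5 were higher, among them Flcn (0.81) and Rragd (0.52) beside Slc38a9, and Lamtor2 (−0.44) was lower. Sesn2 and Slc38a9 were already counted in other lists above.

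A marker of another islet cell type moved in the opposite direction to the transporters at 72 h. Gcg, which encodes glucagon and marks α cells in islets, was lower at 72 h (−1.93, adjusted p = 0.0134). Its signals were 12.85 and 11.79 at 72 h, against 14.16 and 14.34 in the transfected control. Gcg was detected on all 12 arrays of this cell line, and whether separate cells expressed it was not tested. Ppy, the pancreatic polypeptide and the only other such marker detected, had signals of 6.33 and 7.82 at 72 h, against 6.21 and 8.12 in the transfected control (−0.09, adjusted p = 0.963). The median unnormalized signal was 16430 for Gcg and 166 for Ppy, so that the sum over the other-cell markers is nearly that of Gcg. This sum, of unnormalized signals, ranged between 4348 and 7532 at 72 h, against 17579 and 26032 in the transfected control. The sum over the β-cell markers, of which Ins2 and G6pc2 make up most, ranged between 90038 and 96503 at 72 h, against 93932 and 115070 in the transfected control. It is not normalized either, and the median signals of these arrays were 73.6 and 71.1 at 72 h, against 72.6 and 82.4. After normalization Ins2 was 15.53 and 15.37 at 72 h, against 15.53 and 15.53. Ins2 was also 15.53 on both arrays of every other group. Normalization to equal quantiles gives the highest signals of each array the same values, so these do not show that Ins2 was steady. Among the β-cell markers Mafa was lower with the slide in the fit only (−1.27, adjusted p = 0.0122). The part of such changes in the transporter results was not tested, and in bulk RNA fewer cells of a type and less RNA per cell cannot be told apart.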

How the data were processed

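Illumina arrays, 12 in all, measured the RNA of MIN6 cells in 6 groups of 2. The authors deposited signal intensities averaged per probe and not normalized between arrays, each with a detection p-value that the authors deposited beside it, and quantile-normalized intensities, for which the processing notes name lumi. On the first, neqc of limma 3.58.1 (R 4.3.3) corrected the background with an offset of 16, equalized the quantiles of the arrays and took log2. Normalization to equal quantiles removes any shift common to all genes, and low signals are compressed toward the offset.

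Of 45281 probes, the 17556 that 2 or more arrays detected (detection p under 0.01) were kept, and the probe with the highest mean stood for its gene. The platform annotation, which can be old, gives 34885 probes 1 symbol, 18 several and 10378 none. A linear model of the 6 groups with a trend in the variance was fitted to all 12001 features, and p-values were adjusted by Benjamini-Hochberg over all of them (threshold 0.05). The labels give each array's slide, which is also its replicate number, and residuals on the same slide were correlated, with a median of 0.434 over the 15 pairs of groups and a range of 0.207 to 0.628, so every comparison was also fitted with the slide as a block. A group with the probe detected on none of its arrays has only a bound. The bound sets the other group's mean against the mean of, per array, the higher of the probe's own signal and the lowest signal of a detected probe.

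The transporters, the gene lists and the rule for named genes (all 10 transporters, up to 6 genes per list with the smallest p at 72 h, and the 5 genes most like the mean profile) were chosen with earlier results of these data known. Asns, Atf4, Rragd and Lamtor2 fall outside this rule and were named after their values were seen. The procedure was tested on simulated data. Alternatives were the slide as a block, other background, scaling and detection settings, the authors' normalized intensities, every kept probe, a fit of the groups compared, the t-test of the methods, the other control, and single arrays left out in turn. Promoter windows came from RefSeq tables (GRCm38.p6) and were at hand for 6 transporters. Python 3.11.15 with matplotlib 3.10.9 drew the figures.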

Additional observations from a re-analysis of the deposited data

Results flagged for a closer look

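The difference from the transfected control was larger at 72 h than at 16 h for 6 transporters by the direct test of 72 h against 16 h, which was past the threshold for Slc6a9 (3.97 on the log2 scale), Slc7a11 (3.68) and Slc38a2 (1.56) in both fits. For Slc7a3 (2.63), Slc1a4 (2.57) and Slc3a2 (1.82) it was past the threshold with the slide in the fit only. With 2 arrays a group, no array could be tested as standing apart from the others of its group.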

How the results depend on the processing

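Differences of named transporters at 16, 48 and 72 h and from 16 to 72 h were recomputed under the alternatives. This gave 528 values over genes, comparisons and settings, of which 439 kept their direction and side of the threshold. Of the others, 35 lost a call, 41 gained one and 13 turned in sign. Differences at 16 and 48 h had not passed as reported, so that these had no call to lose. Median scaling moved the median of all features by 0.106 from 48 to 72 h and by −0.112 at 48 h, and at 72 h and from 16 to 72 h it left 312 and 179 features past the threshold, against 658 and 368 as reported. From 16 to 72 h, 68.7% of these were higher with median scaling, against 53% as reported. Slc3a2 could not be tested when 6 detected arrays were required. Probes at or below the detection limit restrict what can be said of Slc7a1, Slc1a5 and Slc3a2. Causes of these changes were not tested.

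With the replicate block (the slide), which changed no other call of the transporters, 6 transporters passed at 72 h and 6 from 16 to 72 h, against 2 and 3 without it. Features past the threshold with the block were 1 at 16 h, 2 at 24 h, 114 at 48 h and 2305 at 72 h. They were 2237 from 16 to 72 h, 3 from 24 to 48 h and 1 between the 2 controls. This last comparison is labelled by transfection below, although the controls differ in doxycycline too. Fitting no groups but those compared gave 6 transporters in both comparisons with 72 h and 387 features at 72 h. Without the 48 h arrays (chosen after seeing the data) there were 6 transporters in both, with 1277 features at 72 h and 1183 from 16 to 72 h. Taking every kept probe gave 559 features from 16 to 72 h, and the authors' normalized intensities 1 by transfection. The methods' t-test, unadjusted, passed 5 transporters in both comparisons with 72 h. Its features numbered 389 at 16 h, 446 at 24 h, 604 at 48 h, 1331 at 72 h, 1362 from 16 to 72 h, 514 from 24 to 48 h, 353 from 48 to 72 h and 338 by transfection. After Benjamini-Hochberg it passed 0 transporters and 0 features at 72 h and from 16 to 72 h.

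Leaving out 1 array in turn gave 0 to 4 transporters (48 h), 0 to 4 (72 h), 0 to 4 from 16 to 72 h, 0 to 4 from 24 to 48 h and 0 to 1 from 48 to 72 h. When the slide was fitted too, it gave 0 to 5 (48 h), 2 to 5 (72 h), 0 to 6 from 16 to 72 h, 0 to 4 from 24 to 48 h and 0 to 5 from 48 to 72 h, the last without the 48 h array of slide 2. Features ranged from 0 to 454 (48 h), from 0 to 1504 (72 h), from 0 to 1512 from 16 to 72 h, 0 to 296 from 24 to 48 h and 0 to 46 from 48 to 72 h. With the slide they ranged from 1 to 1 (24 h), 1 to 975 (48 h), 165 to 2875 (72 h), 8 to 2834 from 16 to 72 h, 0 to 742 from 24 to 48 h, 0 to 426 from 48 to 72 h and 0 to 0 by transfection. A lone array is assumed to vary like the other groups.

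The sign turned in 13 cases, each beside a difference that had not passed. Against the other control it was −0.067 for Slc3a2 at 48 h and 0.064 for Slc38a1 at 16 h. With 1 array left out in turn, differences at 16 h lay between −0.521 and 0.20 for Slc7a3, −0.169 and 0.157 for Slc38a1 and −0.108 and 0.360 for Slc38a2. At 48 h they lay between −0.379 and 2.834 for Slc7a3, −0.437 and 3.368 for Slc7a11, −0.792 and 1.220 for Slc3a2 and −0.208 and 0.599 for Slc38a1. When the slide was fitted they lay between −0.204 and 3.135 for Slc7a11, −0.664 and 1.092 for Slc3a2 and −0.046 and 0.437 for Slc38a1. At 48 h the lower end of each is the value without the 48 h array of slide 2.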
